A study of Mus musculus with 4 samples.

Results

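Ly6e, Ly6a, Ly6c1 and Ly6c2 are 4 genes of the Ly6 family, picked by symbol from the 24061 gene rows of a count table of sorted mouse regulatory T cells. They were picked because the level of Ly6e differed between the 4 libraries in a way that followed neither their labels nor their Maf level alone, so their levels are described here and not tested. Ly6e was highest in both libraries labelled wt, lower in the library labelled flox 1 and lowest in the library labelled flox 2, which stood at 0.149 to 0.278 of the other libraries. Ly6a kept that order, and in flox 2 Ly6c1 and Ly6c2 were down to 3 counts and 1 count.

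Ly6 genes encode small surface proteins with a three-finger fold that are held in the outer membrane leaflet by a glycosylphosphatidylinositol (GPI) anchor. In the mouse many of them lie in 1 cluster on chromosome 15, are induced in lymphocytes by interferons and mark stages of lymphoid and myeloid development. Ly6a encodes Sca-1, known from stem cells and activated T cells. Ly6c1 and Ly6c2 encode the Ly6C antigen of monocytes, plasma cells and subsets of T cells, and Ly6e encodes TSA-1 or Sca-2, a thymocyte antigen also known to hinder the entry of coronaviruses. Inbred mouse strains carry different haplotypes of this cluster, which differ in how much Ly6A and Ly6C their lymphocytes show. The haplotype of these mice is not given in the labels.

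The cells were effector regulatory T cells of Peyer's patches, the lymphoid follicles of the small intestine, sorted as CD4+ and FoxP3+ cells with an effector surface phenotype. The libraries labelled flox 1 and flox 2 are assigned to Maf flox/flox mice and those labelled wt 1 and wt 2 to Maf+/+ mice. All carried the FoxP3-YFP-cre allele, which expresses Cre recombinase and a yellow fluorescent protein in cells that use Foxp3, and all were 13 weeks old on a C57BL/6 background after backcross generation 5. The labels do not say whether the libraries of 1 label came from separate or pooled mice, so the spread between them may be partly technical. Gene totals were 24687897 and 20809399 counts in flox 1 and flox 2 and 21148345 and 19368745 counts in wt 1 and wt 2.

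Maf, the targeted gene, went against 2 of the labels. It had 122 and 0.725 CPM in the libraries labelled flox 1 and flox 2, against 149 and 1.98 CPM in wt 1 and wt 2 (CPM, the count scaled to a common library size with TMM factors). The library labelled flox 1 thus carried Maf at the level of wt 1, and the library labelled wt 2 had nearly none, so every difference below is one between labels or between single libraries and not between Maf levels. Foxp3 had 91 and 104 CPM in flox 1 and flox 2 and 93.8 and 104 CPM in wt 1 and wt 2, and Cd4 was between 920 and 998 CPM throughout. The library labelled flox 2 stood apart in heat shock genes: Hspa1a, a gene singled out once its values were known, had 80.9 and 892 CPM in flox 1 and flox 2 and 35.5 and 103 CPM in wt 1 and wt 2. Its part in the results below was not tested.

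Ly6e, the most abundant of the 4 genes, had 1370 CPM in the library labelled flox 1 and 381 in flox 2, against 2450 in wt 1 and 2562 in wt 2. These rest on 33449, 7873, 50386 and 51817 counts in flox 1, flox 2, wt 1 and wt 2. Both libraries labelled flox were below both labelled wt, and the libraries labelled flox were further apart than those labelled wt. It was at 0.155 of wt 1 in flox 2 (95% interval 0.152 to 0.159) and at 0.149 of wt 2 (0.145 to 0.152). Flox 1 was at 0.559 of wt 1 (0.552 to 0.567) and at 0.535 of wt 2 (0.527 to 0.542). Within a label, flox 2 was at 0.278 of flox 1 (0.271 to 0.285), whereas wt 1 was at 0.956 of wt 2 (0.945 to 0.968). The intervals are exact binomial ones and cover counting error only, not the spread between mice.

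The order of Ly6e did not follow Maf. The lowest level belonged to a library with little Maf, flox 2, but the highest belonged to another with little Maf, wt 2, and the 2 libraries with high Maf, flox 1 and wt 1, differed from each other. By label Ly6e averaged 876 ± 700 CPM in flox and 2506 ± 79.3 CPM in wt (SD, n = 2 each). On the log2 scale labelled flox stood -1.52 from labelled wt (SE 0.64, fold change fitted by edgeR). It was -2.72 without flox 1 and -0.87 without flox 2, so its size depends on which library labelled flox is kept.

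Ly6a, which encodes Sca-1, had 43.4 CPM in flox 1 and 15.9 in flox 2, against 69.6 in wt 1 and 62.9 in wt 2. The counts were 1060, 328, 1432 and 1272 in flox 1, flox 2, wt 1 and wt 2. As for Ly6e, the labels did not overlap and flox 2 was the lowest. In flox 2 it was at 0.228 of wt 1 (0.201 to 0.257) and at 0.252 of wt 2 (0.223 to 0.285), and flox 1 was at 0.624 of wt 1 (0.575 to 0.676) and at 0.69 of wt 2 (0.636 to 0.75). Flox 2 was at 0.365 of flox 1 (0.322 to 0.414). Wt 1 was at 1.11 of wt 2 (1.03 to 1.19), the reverse of their order in Ly6e. By label Ly6a averaged 29.6 ± 19.5 CPM in flox and 66.3 ± 4.76 CPM in wt (SD, n = 2 each), and the log2 fold change fitted by edgeR was -1.16 (SE 0.50). Without flox 1 this was -2.06 and without flox 2 it was -0.61.

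Ly6c1 had 138 counts in flox 1 and 3 in flox 2, against 145 in wt 1 and 177 in wt 2. In CPM these were 5.65, 0.145, 7.05 and 8.75. The 3 counts of flox 2 put it at 0.0257 of flox 1 (0.00523 to 0.0766), at 0.0206 of wt 1 (0.0042 to 0.0613) and at 0.0166 of wt 2 (0.00339 to 0.0493). The other 3 libraries lay close together. Flox 1 was at 0.802 of wt 1, with an interval that includes 1 (0.631 to 1.02), and at 0.646 of wt 2 (0.513 to 0.812). The log2 fold change by label was -1.43 (SE 1.38, edgeR), and it was -5.71 without flox 1 and -0.48 without flox 2.

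Ly6c2 was the rarest, with 40 counts in flox 1 and 1 in flox 2, against 25 in wt 1 and 34 in wt 2. In CPM these were 1.64, 0.0484, 1.22 and 1.68. Here flox 1 lay above wt 1 and the labels overlapped. Flox 2 was at 0.0295 of flox 1 (0.000729 to 0.174), and the intervals of flox 1 over wt 1 (0.798 to 2.32) and of flox 1 over wt 2 (0.602 to 1.59) both include 1. The log2 fold change by label was -0.76 (SE 1.30, edgeR). Its sign turned without flox 2, where it was 0.18, and without flox 1 it was -4.74. One library thus decides the value of Ly6c2 by label.

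**Figure D1:**
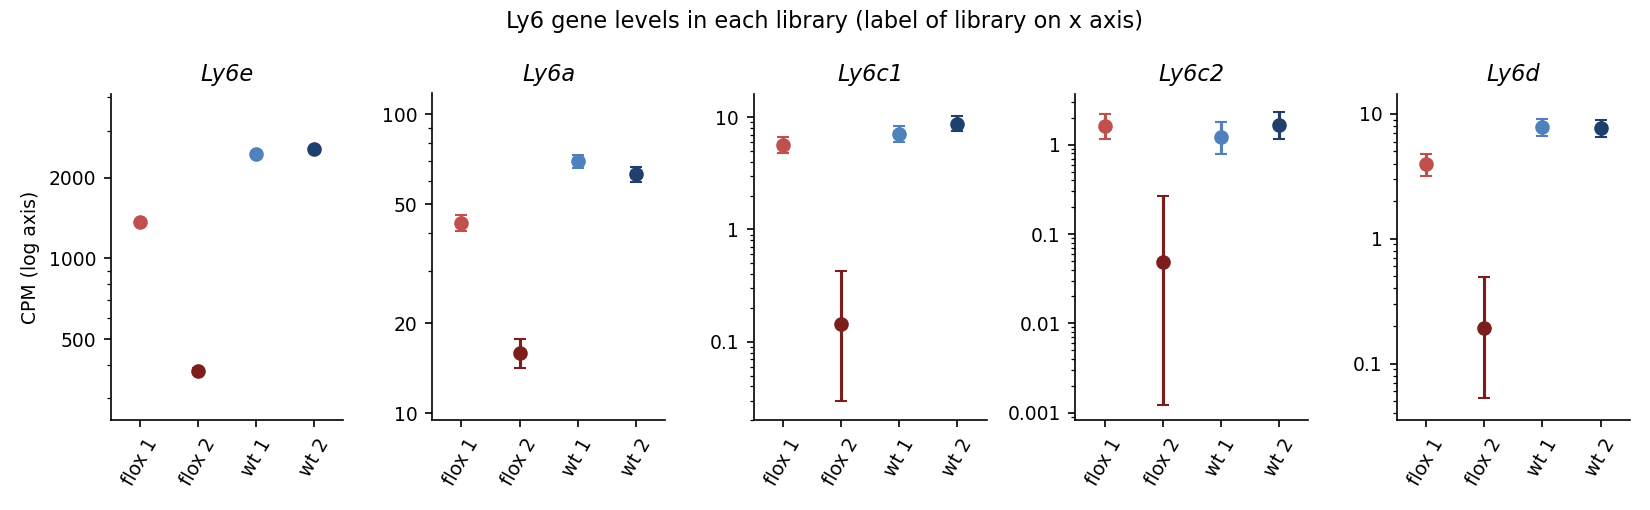
CPM of Ly6e, Ly6a, Ly6c1, Ly6c2 and the neighbouring Ly6d on log axes, 1 point per library, with 95% Poisson intervals of the counts. Flox 2 is the lowest point in every panel, and flox 1 lies between flox 2 and both libraries labelled wt for Ly6e, Ly6a, Ly6c1 and Ly6d but not for Ly6c2.

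All 4 genes passed the filter on low counts. Both libraries labelled flox were below both labelled wt in 3 of the 4, Ly6e, Ly6a and Ly6c1, and 13.8% of the 13022 genes that passed showed this. Flox 2 was below flox 1, and flox 1 below both labelled wt, in the same 3 genes and in 7.4% of all. Flox 2 was at least 2-fold below each other library in all 4 genes, and this held for 2.1% of the genes tested, with levels under 3 counts set to 3. No other library stood that far below the rest in any of the 4, as flox 1 did in 0.591%, wt 1 in 2.7% and wt 2 in 1.05% of the genes tested. As the genes were picked from these values, nothing is read from the comparison of these shares. Fewer cells with a transcript and less transcript per cell cannot be told apart in such bulk libraries.

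The size of the deficit in flox 2 differed among the 4 genes. Counts of Ly6e over those of Ly6a were 31.6 (29.7 to 33.6) in flox 1 and 24 (21.5 to 26.9) in flox 2, against 35.2 (33.4 to 37.1) in wt 1 and 40.7 (38.5 to 43.1) in wt 2. Both genes thus held a similar proportion, somewhat lower in flox 2. Counts of Ly6a over those of Ly6c1 were 7.68 (6.43 to 9.24) in flox 1 and 109 (37.1 to 533) in flox 2, against 9.88 (8.32 to 11.8) in wt 1 and 7.19 (6.14 to 8.46) in wt 2. In flox 2, Ly6c1 was therefore short by far more than Ly6a. Per kilobase of annotated exon, the level of Ly6e was 362 and 101 CPM in flox 1 and flox 2 and 647 and 677 CPM in wt 1 and wt 2, and that of Ly6a was 36 and 13.2 CPM in flox 1 and flox 2 and 57.8 and 52.2 CPM in wt 1 and wt 2. On the same scale Ly6c1 was at 3.37 and 0.0865 CPM in flox 1 and flox 2 and at 4.2 and 5.22 CPM in wt 1 and wt 2, and Ly6c2 was at 0.598 and 0.0176 CPM in flox 1 and flox 2 and at 0.444 and 0.614 CPM in wt 1 and wt 2. The order from Ly6e to Ly6a to Ly6c1 to Ly6c2 was the same in each library, though with 3 counts and 1 count the last step is not resolved in flox 2.

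Reads from stretches that Ly6 copies share may have gone to the wrong copy or been left uncounted, as the counting settings are not stated. The longest annotated coding sequences of Ly6c1 and Ly6c2 match at 90.6% of 393 aligned bases, those of Ly6a and Ly6c2 at 83.5% of 393, and those of Ly6e and Ly6a at 57.1% of 387. Of the 50-base stretches in annotated transcripts, 32.8% for Ly6c1, 19% for Ly6a and 14.5% for Ly6c2 also occur in transcripts of another gene, and 0% for Ly6e. The split between Ly6c1 and Ly6c2 is therefore uncertain, while Ly6e has no such copy at this length. With the counts of Ly6c1 and Ly6c2 summed, the log2 CPM of flox 2 minus the mean of the other 3 libraries was -5.47, and with Ly6a added it was -2.04. A sum does not restore reads that were left uncounted. None of the 4 genes overlaps another annotated gene.

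Promoters of 2 of the 4 genes, Ly6c1 and Ly6c2, were found in RefSeq (GRCm38.p6) and are shown because both were at or under 3 counts in flox 2. Ly6c1 is read from chr15:75048788-75049087 and Ly6c2 from chr15:75111922-75112221, both on the minus strand, from 250 bases before to 50 after the annotated start, with capitals for bases that do not match the other promoter in a global alignment.
Ly6c1: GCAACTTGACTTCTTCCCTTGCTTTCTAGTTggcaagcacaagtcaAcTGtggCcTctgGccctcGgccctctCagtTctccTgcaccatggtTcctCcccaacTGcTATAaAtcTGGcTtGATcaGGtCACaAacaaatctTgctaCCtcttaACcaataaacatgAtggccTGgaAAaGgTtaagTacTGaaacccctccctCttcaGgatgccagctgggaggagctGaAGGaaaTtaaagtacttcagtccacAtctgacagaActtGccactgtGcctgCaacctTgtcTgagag
Ly6c2: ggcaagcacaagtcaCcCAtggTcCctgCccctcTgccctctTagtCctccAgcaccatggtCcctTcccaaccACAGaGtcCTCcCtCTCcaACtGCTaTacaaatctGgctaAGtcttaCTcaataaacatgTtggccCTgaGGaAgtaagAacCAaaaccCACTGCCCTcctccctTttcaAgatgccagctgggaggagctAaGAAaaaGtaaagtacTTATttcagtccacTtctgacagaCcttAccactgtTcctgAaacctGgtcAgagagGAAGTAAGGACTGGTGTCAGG
Of 266 aligned bases 208 were the same (78.2%). The core of the interferon-stimulated response element (GAAA, any 2 bases, then GAAA, searched on both strands) is not in either window and is in 3.44% of the 32851 RefSeq promoters of this length. The gamma-activated site TTCNNNGAA, its own reverse complement (8.3% of promoters), and the core of MAF sites, TGCTGA or TCAGCA, (19.5%) are also not in these letters. The TATA box TATAAA, or TTTATA on the other strand, is in 13.6% of promoters and occurs 1 time in Ly6c1, at -143 from the table's start, and 0 times in Ly6c2. Ly6e and Ly6a are named only.

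The genes beside the 4 showed which part of the chromosome shared the pattern. All coordinates are of mm10. Ly6e lies at 74955051 to 74959905 on the plus strand, and Ly6a (74994877 to 74998031), Ly6c1 (75044018 to 75048830) and Ly6c2 (75108158 to 75111970) follow within 157 kb on the minus strand. Within 500 kb of them 25 annotated genes have a row in the count table, of which 8 had 0 counts in every library and 11, the 4 included, passed the filter. Of the 7 others, 0 passed the edgeR quasi-likelihood test by label, where 1 of all 13022 genes did (0.00768%). That gene, the predicted Gm8615, had 440 and 454 counts in flox 1 and flox 2 and 1 count each in wt 1 and wt 2 (adjusted p = 0.0322 by edgeR, higher in labelled flox), and it was not called when any 1 of the 4 libraries was left out. Of the 7 neighbours 1 had an unadjusted p under 0.05, against 1.98% of all genes, and DESeq2 called 0.

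Ly6d, 191 kb before Ly6e and known as an antigen of thymocytes, B cell precursors and plasmacytoid dendritic cells, had 96 counts in flox 1 and 4 in flox 2, against 160 in wt 1 and 155 in wt 2. Flox 1 again lay between flox 2 and both labelled wt, and flox 2 was at 0.0492 of flox 1 (0.0131 to 0.13). By label its log2 fold change was -1.89 (SE 1.20) and it did not pass the edgeR quasi-likelihood test (adjusted p = 0.9998). Lynx1, which encodes a three-finger modulator of nicotinic acetylcholine receptors, had 17 counts in flox 1 and 0 in flox 2, against 22 in wt 1 and 29 in wt 2. At 0 counts flox 2 was under the limit of 3 counts (0.145 CPM). Its log2 fold change by label, -1.80 (SE 1.38), depends on the prior count and did not pass (adjusted p = 0.9998 by edgeR).

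Genes between and beyond these did not all share the deficit of flox 2. Ly6k, between Ly6d and Ly6e and known from testis, had 1.06 and 1.6 CPM in flox 1 and flox 2 and 0.632 and 2.47 CPM in wt 1 and wt 2, and flox 2 was at 1.17 of the other 3 libraries pooled (0.759 to 1.76). The gene 2010109I03Rik lies 58 kb from Ly6e. It had 0.942 and 1.02 CPM in flox 1 and flox 2 and 2.29 and 3.41 CPM in wt 1 and wt 2. Here both libraries labelled flox were equally low, and its unadjusted p was the smallest of the neighbours (0.0276, and 0.9998 when adjusted, by edgeR's quasi-likelihood test), with -1.54 as its log2 fold change (SE 0.51). Them6 and Jrk, 234 and 246 kb before Ly6e, were near parity: flox 2 was at 0.858 of the other libraries (0.685 to 1.07) for Them6 and at 1.25 (1.01 to 1.54) for Jrk. Arc, best known as an immediate early gene of neurons, had 34.1 and 12.2 CPM in flox 1 and flox 2 and 29 and 14.9 CPM in wt 1 and wt 2, so that its lower values were in the 2 libraries with little Maf.

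**Figure D2:**
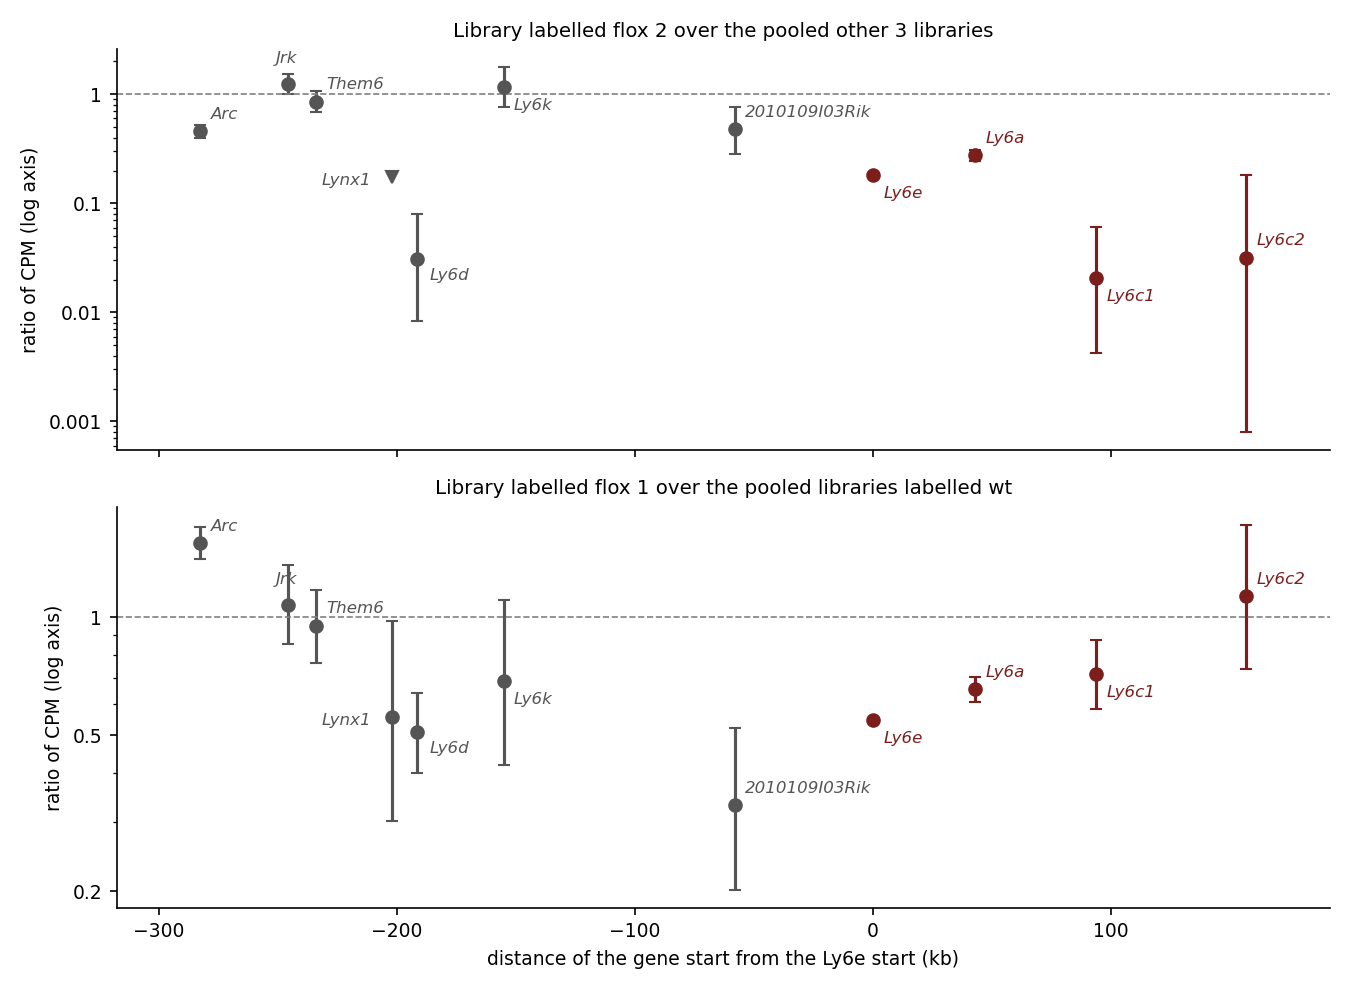
Ratio of CPM (log axes) for the 11 genes within 500 kb that passed the filter, by distance of the gene start from that of Ly6e in kb, for flox 2 over the pooled other 3 libraries (top) and flox 1 over the pooled libraries labelled wt (bottom), with exact 95% intervals. A triangle marks the upper bound where flox 2 had 0 counts, and the 4 Ly6 genes are in dark red: all 4, with Lynx1 and Ly6d, lie below 0.5 in the top panel with their whole intervals, whereas Jrk, Them6 and Ly6k lie near 1.

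Flox 1 took a middle place for part of the cluster. Relative to the pooled libraries labelled wt it was at 0.547 for Ly6e (0.54 to 0.554), 0.509 for Ly6d (0.401 to 0.642), 0.655 for Ly6a (0.61 to 0.704) and 0.716 for Ly6c1 (0.582 to 0.877). For Lynx1 it was at 0.557 (0.302 to 0.981), and for Ly6c2 at 1.13 (0.739 to 1.72). Its value for Ly6d, Ly6e, Ly6a, Ly6c1 and Lynx1 thus lay between flox 2 and wt with intervals that exclude 1, though Lynx1 rests on few counts. Two-way spread was seen nearby: flox 1 was at 0.331 for 2010109I03Rik (0.202 to 0.522) and at 1.55 for Arc (1.41 to 1.7). For Jrk, Them6 and Ly6k its interval included 1. The ratio of wt 1 to wt 2 was 1.01 for Ly6d (0.809 to 1.27), 0.806 for Ly6c1 (0.642 to 1.01) and 0.723 for Ly6c2 (0.414 to 1.25). It was 0.746 for Lynx1, 0.67 for 2010109I03Rik, 0.256 for Ly6k and 1.95 for Arc, so the libraries labelled wt also differed in parts of the region.

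Farther away, chromosome 15 held other genes low in flox 2, as did each of the other 19 chromosomes. On chromosome 15, 478 genes were tested. Of these, 15 were at least 2-fold below each other library in flox 2, the 4 Ly6 genes included. Shares on the other 19 chromosomes ranged from 1.18% to 4.19%, and that of chromosome 15 lay within this range. Without the 4, which were picked for their low level, 11 remained. These still include the neighbours Lynx1 and Ly6d, so not all of the 11 lie farther away. Whether chromosome 15 held more such genes than other chromosomes was not tested. Of the 15, 5 had a mean of at least 10 CPM, a limit chosen after seeing the data, and these were Ly6e, Ly6a, Matn2, Zhx2 and Cyhr1. They were 1.51% of the 331 chromosome 15 genes at that level, against 0.323% of 8353 tested genes with an annotated place. Ly6e and Ly6a were picked for their low level, so nothing is read from these 2 shares. Zhx2, a zinc finger and homeobox repressor at -17.3 Mb from the start of Ly6e, had 21.3 and 5.8 CPM in flox 1 and flox 2 and 41 and 39.6 CPM in wt 1 and wt 2, with flox 1 again between flox 2 and both labelled wt. Cyhr1, 1.71 Mb after Ly6e, had 75.8 and 35.2 CPM in flox 1 and flox 2 and 92.1 and 92.4 CPM in wt 1 and wt 2. Matn2, which encodes a matrix protein, had 38 and 0.58 CPM in flox 1 and flox 2 and 59.8 and 3.91 CPM in wt 1 and wt 2, and was thus low in both libraries with little Maf.

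**Figure D3:**
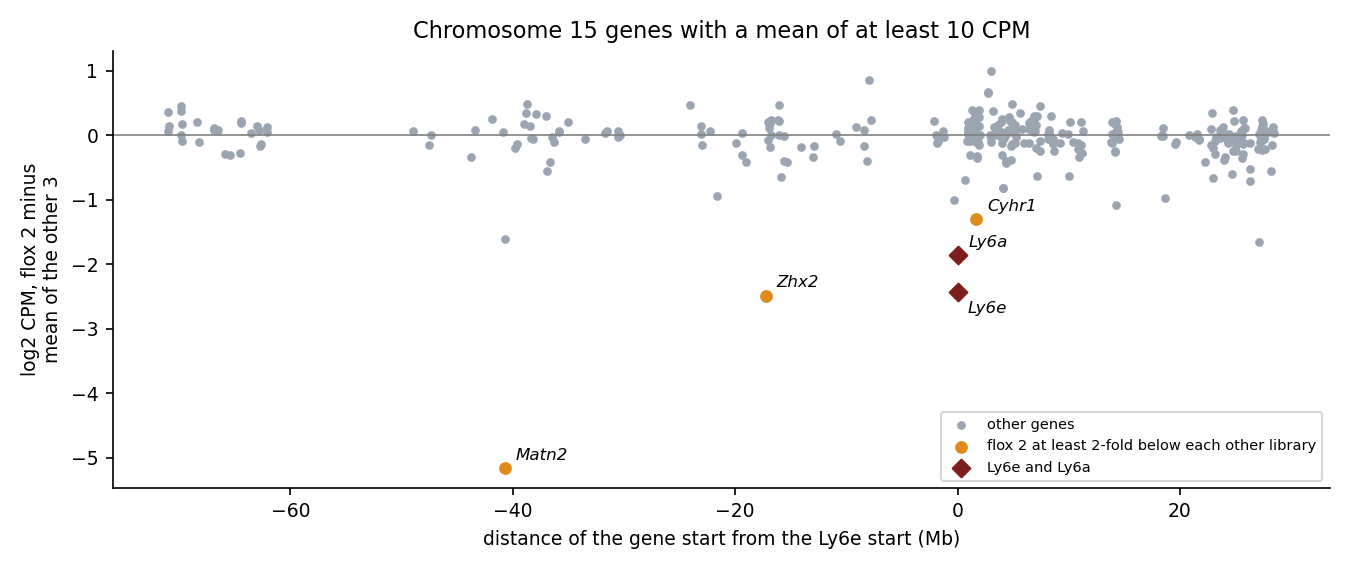
Difference in log2 CPM of flox 2 from the mean of the other 3 libraries for the 331 genes of chromosome 15 with a mean of at least 10 CPM, by distance of the gene start from that of Ly6e in Mb. Most genes lie near 0, while Matn2, Zhx2, Ly6e, Ly6a and Cyhr1 lie at -5.16, -2.49, -2.43, -1.86 and -1.30.

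Among the genes searched on all chromosomes, the one with the pattern nearest to Ly6e was Zhx2. Likeness was the Euclidean distance of log2 CPM over the 4 libraries, centred on each gene's mean, with levels under 3 counts set to 3. The search took 8425 other tested genes with a mean of at least 10 CPM and left out predicted genes such as Gm and Rik symbols. Among these, Zhx2 lay at a distance of 0.105. Ly6a came next (0.558), then Mbd2 (0.716), Zswim6 (0.75) and Tmem87a (0.834). Mbd2, a reader of DNA methylation, had 118 and 40.2 CPM in flox 1 and flox 2 and 148 and 149 CPM in wt 1 and wt 2. Zswim6, on chromosome 13, had 13.4 and 5.17 CPM in flox 1 and flox 2 and 20.8 and 17 CPM in wt 1 and wt 2, and it was also the nearest to Ly6a (0.201), before Mbd2 (0.258) and Ybx3 (0.382). For Ly6c1 and Ly6c2 the nearest of these genes was Tmem87a, at 2.67 and 0.738, with 78.7 and 12.3 CPM in flox 1 and flox 2 and 69.9 and 73.1 CPM in wt 1 and wt 2. As Ly6c2 in flox 2 was set to 3 counts, its difference from the other libraries entered as -3.37 and not as -4.95, which affects its distances. Below the limit of 10 CPM, Ly6d lay at 0.705 from Ly6c1, closer than any of the genes searched above that limit.

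Most of the rest of the Ly6 family did not pass the filter on low counts. Of 38 other family members and relatives listed, 32 had a row, 12 of these had 0 counts in every library and 9 passed the filter. By label 0 of the 9 passed the edgeR quasi-likelihood test, 0 had an unadjusted p under 0.05 and DESeq2 called 0. Their median log2 fold change was -0.29, against 0.00109 for all genes. Flox 2 was at least 2-fold below each other library in 4 of the 9, namely Ly6d, Lynx1, Plaur and Lypd1, against 2.1% of all genes tested. Lypd1 rests on few counts, 15 and 5 in flox 1 and flox 2 and 10 and 15 in wt 1 and wt 2. Ly6d and Lynx1 are given above. Lypd8, which encodes a protein of the colonic epithelium that binds bacterial flagella, had 26.9 CPM in flox 1 and in flox 2 and 3.01 and 19.1 CPM in wt 1 and wt 2. Bambi, a decoy receptor of the TGF-beta family listed for its related fold, had 34.6 and 28.4 CPM in flox 1 and flox 2 and 45.7 and 16.4 CPM in wt 1 and wt 2. Plaur, the urokinase receptor, had 9.34 and 2.42 CPM in flox 1 and flox 2 and 8.8 and 5.64 CPM in wt 1 and wt 2. Ly6g5b, whose gene lies on another chromosome, had 0.901 and 1.89 CPM in flox 1 and flox 2 and 0.729 and 3.71 CPM in wt 1 and wt 2, so that flox 2 was not the lowest. Lypd1 and Lypd6b stayed under 1 CPM in each library.

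Interferon response genes did not show the deficit of flox 2. Of 64 listed genes with a row 61 passed the filter, and 0 of them were at least 2-fold below each other library in flox 2. Over all genes tested this share was 2.1%, so a count of 0 in a list of this size says little by itself. For the 61 genes the median difference of flox 2 from the other libraries was 0.14 on the log2 scale, against 0.00416 for all genes. By label 0 passed edgeR's quasi-likelihood test and DESeq2 called 0, 2 had an unadjusted p under 0.05, and the median log2 fold change was 0.03. Isg15, a ubiquitin-like modifier, had 53.1 and 66.3 CPM in flox 1 and flox 2 and 48.7 and 41.6 CPM in wt 1 and wt 2. Its highest value was in flox 2, where Ly6e had its lowest. Psmb8, a subunit of the immunoproteasome, had 345 and 424 CPM in flox 1 and flox 2 and 339 and 349 CPM in wt 1 and wt 2. Rsad2, which encodes viperin, had 11.2 and 10.3 CPM in flox 1 and flox 2 and 6.71 and 8.55 CPM in wt 1 and wt 2. Ifi44, which had 2.29 and 2.66 CPM in flox 1 and flox 2 and 0.292 and 0.989 CPM in wt 1 and wt 2, and Slfn5, with 27.8 and 29 CPM in flox 1 and flox 2 and 37.6 and 34.7 CPM in wt 1 and wt 2, were those with a small unadjusted p (0.0421 and 0.0436 by edgeR's quasi-likelihood test). Both had an adjusted p = 0.9998.

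Receptors and factors that act upstream of Ly6 genes were likewise present in flox 2. All 30 listed genes, among them the interferon and interleukin-27 receptors and Jak kinases, passed the filter. In flox 2, 0 of the 30 were at least 2-fold below each other library, a count close to the 2.1% of all genes tested. By label 0 passed the edgeR quasi-likelihood test and DESeq2 called 0, and the median log2 fold change was 0.04. Tbx21, which encodes T-bet, was the 1 gene with an unadjusted p under 0.05 by edgeR's quasi-likelihood test (0.0468, and 0.9998 when adjusted), with 19.6 and 22.2 CPM in flox 1 and flox 2 and 14.7 and 15.8 CPM in wt 1 and wt 2. Ifng, the gene of interferon gamma, had 5.37 and 20.7 CPM in flox 1 and flox 2 and 4.28 and 6.08 CPM in wt 1 and wt 2. Irf1, a target of interferon gamma, had 329 and 298 CPM in flox 1 and flox 2 and 278 and 267 CPM in wt 1 and wt 2. Jak1, the kinase of many cytokine receptors, had 1353 and 1402 CPM in flox 1 and flox 2 and 1476 and 1470 CPM in wt 1 and wt 2. Tnfrsf1b, a receptor of tumour necrosis factor, had 2086 and 1826 CPM in flox 1 and flox 2 and 1989 and 1426 CPM in wt 1 and wt 2.

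Genes that make the GPI anchor of Ly6 proteins did not share the deficit of flox 2. All 30 listed genes passed the filter, 0 of them passed the edgeR quasi-likelihood test by label, 0 had an unadjusted p under 0.05 and DESeq2 called 0. The median difference of flox 2 from the other libraries was 0.05 on the log2 scale. There 0 of the 30 genes were at least 2-fold below each other library, a count close to the 2.1% of all genes tested. Pigs, a subunit of the transamidase that attaches the anchor, had 173 and 171 CPM in flox 1 and flox 2 and 179 and 174 CPM in wt 1 and wt 2. Mppe1, which trims the anchor on its way to the surface, had 149 and 163 CPM in flox 1 and flox 2 and 151 and 162 CPM in wt 1 and wt 2. Pgap3, which remodels the lipid of the anchor, had the smallest unadjusted p (0.0819, adjusted p = 0.9998 by edgeR), with 15.7 and 17.8 CPM in flox 1 and flox 2 and 13.5 and 11.1 CPM in wt 1 and wt 2. Pigh, Pigv and Pigq, which act in early steps of synthesis or on the mannose core, came next and ranged from 16.2 to 70.7 CPM.

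Other GPI-anchored proteins of lymphocytes varied gene by gene. Of 22 listed genes 18 passed the filter, 0 passed the edgeR quasi-likelihood test by label, DESeq2 called 0 and 1 had an unadjusted p under 0.05. Flox 2 was at least 2-fold below each other library in 2 of the 18, Cd24a and Plaur, against 2.1% of all genes tested. Plaur is also on the list of Ly6 relatives above. Cd24a, a mucin-like antigen singled out once its values were known, had 10.1 and 1.94 CPM in flox 1 and flox 2 and 5.4 and 7.81 CPM in wt 1 and wt 2. Nt5e, which encodes the adenosine-forming enzyme CD73, had 1374 and 940 CPM in flox 1 and flox 2 and 1518 and 750 CPM in wt 1 and wt 2. Prnp, the prion protein, had 501 and 435 CPM in flox 1 and flox 2 and 421 and 402 CPM in wt 1 and wt 2. Art2b, an ADP-ribosyltransferase of T cells, had 87.4 and 99.7 CPM in flox 1 and flox 2 and 111 and 102 CPM in wt 1 and wt 2. Sema7a, the 1 gene with a small unadjusted p (0.0292, adjusted p = 0.9998 by edgeR), and Efna4 stayed under 1.2 CPM in every library.

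**Figure D4:**
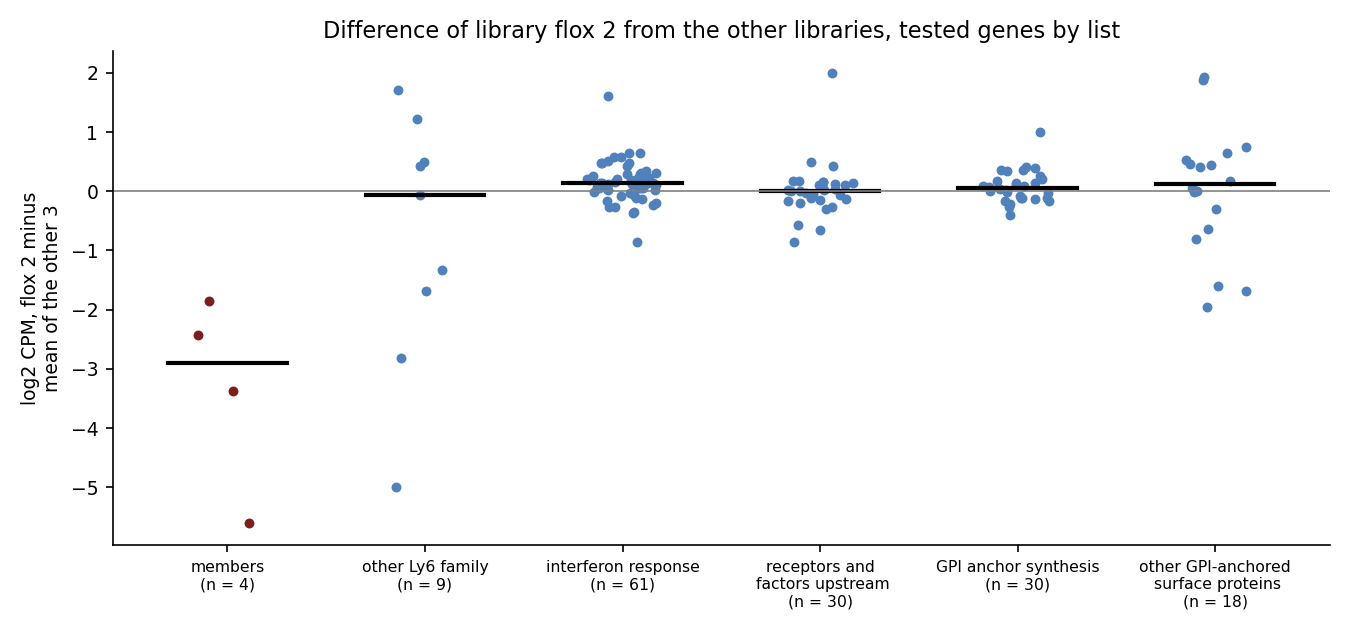
Difference in log2 CPM of flox 2 from the mean of the other 3 libraries for tested genes of each list, 1 point per gene and a bar at the median, with levels under 3 counts set to 3. The 4 Ly6 genes (members) lie between -1.86 and -5.60, while the medians of the interferon response, upstream and GPI anchor lists are 0.14, 0.01 and 0.05.

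Markers of other cells that carry Ly6 antigens were set beside these values. Of 9 markers of plasmacytoid and other dendritic cells, 4 were at least 2-fold below each other library in flox 2. These were Siglech, Flt3, Itgax and Ly6d, and the share over all genes tested was 2.1%. Ly6d is the neighbour described above and adds nothing separate. In flox 2, Flt3 and Itgax were at the limit of 3 counts, and Itgax was also low in wt 1. Of the 9 markers, 0 were at 0 in a library. Siglech, a defining receptor of plasmacytoid dendritic cells, had 7.66 and 0.726 CPM in flox 1 and flox 2 and 8.12 and 8.95 CPM in wt 1 and wt 2, so it was low in the library where the Ly6 genes were low. Other markers of the list were not: Bst2, which activated lymphocytes also express, had 35.6 and 45.3 CPM in flox 1 and flox 2 and 43.5 and 45 CPM in wt 1 and wt 2, and Tcf4, a factor of plasmacytoid dendritic cells, had 15.3 and 10 CPM in flox 1 and flox 2 and 12.5 and 7.71 CPM in wt 1 and wt 2. Zbtb46, a factor of conventional dendritic cells, had 8.32 and 6.29 CPM in flox 1 and flox 2 and 7.29 and 5.93 CPM in wt 1 and wt 2. The summed level of that list was 349 and 199 CPM in flox 1 and flox 2 and 312 and 250 CPM in wt 1 and wt 2, most of it from Ccr9, which T cells of the gut also use. The part of these cells in the result was not tested.

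Of 10 B and plasma cell markers with a row 2 were at least 2-fold below each other library in flox 2, against 2.1% of all genes tested. The summed level was 452 and 360 CPM in flox 1 and flox 2 and 410 and 350 CPM in wt 1 and wt 2. Cd79a, a subunit of the B cell receptor, had 21.3 and 4.06 CPM in flox 1 and flox 2 and 8.56 and 11.8 CPM in wt 1 and wt 2. Its partner Cd79b did not follow it, with 37 and 29 CPM in flox 1 and flox 2 and 23.8 and 29.6 CPM in wt 1 and wt 2, nor did Xbp1, a factor of plasma cells, with 234 and 229 CPM in flox 1 and flox 2 and 220 and 198 CPM in wt 1 and wt 2. None was at 0 in a library. For 11 markers of monocytes, macrophages and neutrophils the sum was 257 and 67.2 CPM in flox 1 and flox 2 and 177 and 74.2 CPM in wt 1 and wt 2, and 0 of them were at least 2-fold below each other library in flox 2. Ccr2, which T cells also use, had 159 and 9.87 CPM in flox 1 and flox 2 and 165 and 14.7 CPM in wt 1 and wt 2, and Lyz2, a lysozyme of myeloid cells, had 66.9 and 43 CPM in flox 1 and flox 2 and 7.97 and 41.2 CPM in wt 1 and wt 2. The neutrophil genes S100a8 and S100a9 were at or near 0 in all 4 libraries, and Csf1r was at 0 in wt 1. Of 12 endothelial and stromal markers Emcn was at 0 in every library and Cdh5, Tek, Esam and Cldn5 were under 0.5 CPM in each. Pecam1, Kdr, Col1a1 and Pdgfrb passed the filter, and 0 of the 12 were at least 2-fold below each other library in flox 2. The sum was 81 and 68 CPM in flox 1 and flox 2 and 76.2 and 88.1 CPM in wt 1 and wt 2. Most of it was Pecam1, with 77.4 and 63.9 CPM in flox 1 and flox 2 and 74.3 and 82.7 CPM in wt 1 and wt 2. The part of B cells and macrophages in the result was not tested.

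Markers of the remaining cell types had other orders. Those of regulatory T cells summed to 6709 and 5675 CPM in flox 1 and flox 2 and 6905 and 5066 CPM in wt 1 and wt 2. Those of the intestinal epithelium summed to 450 and 325 CPM in flox 1 and flox 2 and 200 and 466 CPM in wt 1 and wt 2, and 0 of the 12 were at 0 in a library. The CD8 T and natural killer markers summed to 63.8 and 102 CPM in flox 1 and flox 2 and 56.7 and 87.6 CPM in wt 1 and wt 2, with Ncr1 at 0 in flox 2 and wt 2 and Klrk1 at 0 in wt 1. Those of naive and central T cells, subsets of which carry Ly6C, summed to 3049 and 2836 CPM in flox 1 and flox 2 and 3412 and 2652 CPM in wt 1 and wt 2. Flox 2 was the lowest library in 0 of these 4 sums, and their part in the result was not tested.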

How the data were processed

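RNA of 4 libraries was sequenced. One deposited table holds raw counts by gene symbol in 24061 rows. Its 5 rows of reads given to no gene (66.6% to 67.2% of the column totals) were left out. The other deposited table holds a normalized signal for 10618 genes. Tools named in the submitters' processing notes are TopHat2 2.1.1, HTSeq 0.6.1, edgeR 3.14 and the mm10 build, with no settings, gene models or strandedness. Samples were grouped by the genotype in their titles.

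Counts were fitted in R 4.3.3 with edgeR 4.0.16 (filterByExpr, 13022 genes kept, TMM, robust glmQLFit, glmQLFTest, Benjamini-Hochberg, threshold 0.05), labelled flox over labelled wt, and with DESeq2 1.42.0 as an alternative. The standard error is the log2 fold change over the root of F. The fit was tested on simulated data. It called 37 of 100 genes with a log2 change of 1 and 95 of 100 with a log2 change of 2. It also called 15 of 12822 genes without a change. The changes were planted only in genes above a minimum mean level, so these shares do not cover rarer genes. A list with 0 called genes may therefore still hold changes of the smaller size, and larger ones in its rare genes. As each label has 2 libraries of unstated origin, a p-value reflects the spread between these samples alone. A limit of 3 counts is 0.123 to 0.148 CPM. Coordinates are of GENCODE M21, in which 94.4% of the gene symbols occur.

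The 4 genes, the gene lists and the markers were chosen with earlier results of these data known, so the 4 genes get no p-value. Genes named in the text are the 4, Maf, any gene called by label, family members with at least 10 counts, neighbours within 500 kb, in each other list the 4 with the smallest p and the 2 with the highest mean, and the genes nearest in pattern. Single-gene values of 2 genes that this rule or the marker lists hold are not reported here. Alternatives were other scalings and filters, DESeq2, the replicate number as a block, each library left out, and summed counts.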

Additional observations from a re-analysis of the deposited data

How the results depend on the processing

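Flox 2 remained the lowest library for Ly6e, Ly6a, Ly6c1 and Ly6c2 under DESeq2 size factors, upper quartile scaling and total counts, and for the first 3 of them in the authors' deposited normalized values (Ly6c2 was not analysed there). The difference of Ly6e in flox 2 from the other libraries ranged from -2.44 to -2.43 log2 units. By label the main count was 1 called gene, higher in labelled flox; without a filter on low counts there were 2, both higher, by DESeq2 12 (9 higher, 3 lower), and 0 whichever library was dropped (the lone library of its label is then assumed to vary like the rest). The lists had 0 called genes under every alternative run. Leaving out 1 library moved the log2 fold change by label from -2.72 to -0.87 for Ly6e, from -2.06 to -0.61 for Ly6a, from -5.71 to -0.48 for Ly6c1 and from -4.74 to 0.18 for Ly6c2, the end values coming from flox 1 and flox 2. Labelled flox lay below labelled wt in all 4 genes when flox 1 or wt 1 was left out (chosen after seeing the data), and in 3 otherwise. With the replicate number as a block 1 gene was called and the values were -1.79, -1.31, -2.38 and -1.57 for Ly6e, Ly6a, Ly6c1 and Ly6c2, and 515 genes had an unadjusted p under 0.05, against 258. The shared numbers are not known to pair the mice; same-numbered deviations correlated at 0.264 across genes. Depth limits Ly6c1 and Ly6c2 in flox 2, where 3 counts and 1 count give wide intervals.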

Other observations

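With the limit on the mean level raised to 50 CPM, 2 of the 5 genes nearest to Ly6e stayed, Mbd2 and Tmem87a, and Ybx3, Smad4 and Cyhr1 joined them. Smad4, which carries TGF-beta signals to the nucleus, had 114 and 39 CPM in flox 1 and flox 2 and 124 and 122 CPM in wt 1 and wt 2. Ybx3, a cold shock protein that binds RNA, had 148 and 45.8 CPM in flox 1 and flox 2 and 184 and 149 CPM in wt 1 and wt 2. Neither passed the edgeR quasi-likelihood test by label (adjusted p = 0.9998 each).

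Of the other Ly6 genes of the cluster, Ly6i had 6 counts in wt 2 and 0 in the other libraries, and Ly6f and Ly6h had 0 in every library.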
